A study of Rattus norvegicus with 64 samples.

Results

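The nuclear-encoded genes of the mitochondrial respiratory chain were followed in whole blood of rats given saline or D-amphetamine (AMPH) at different environmental temperatures. The members were all genes whose symbol begins with Ndufa, Ndufb, Ndufc, Ndufs, Ndufv, Sdha, Sdhb, Sdhc, Sdhd, Uqcr, Cox4, Cox5, Cox6, Cox7, Cox8 or Atp5 and that were listed in the count table of every rat. This gave 94 gene identifiers of the 17366 listed for all 64 rats. By complex, 43 identifiers belonged to complex I, 6 to complex II, 9 to complex III, 17 to complex IV and 18 to complex V, assembly factors and related proteins included, and 1 (Cox4nb) shares only the letters of its name. The label held for the other 93, whose symbols name subunits, tissue isoforms, assembly factors or close relatives of the chain. After the filter on low counts (at least 10 counts in at least 4 rats) 93 identifiers could be tested, and Cox4i2, a lung-type isoform of a complex IV subunit, could not.

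All rats were male Sprague-Dawley animals, 85 to 90 days old, that received 4 injections 2 h apart and were bled by cardiac puncture 3 h after the last one. The 5 treatment groups were saline at 22.5 C (6 rats), saline at 16 C (5 rats), saline at 39 C, which is environmentally-induced hyperthermia (16 rats), AMPH at 16 C, described as non-neurotoxic (15 rats), and AMPH at 22.5 C, described as neurotoxic (22 rats). Globin transcripts had been depleted from the RNA before the libraries were made. Each library was taken as a single rat, although the deposited name of the library of rat 12 at 39 C holds the word pool. The labels call the AMPH rats at 22.5 C and the saline rats at 39 C hyperthermic and the AMPH rats at 16 C normothermic (spelled Noromothermic there), and the 2 remaining groups saline controls. They gave no measured body temperature for any rat, so each group is named by its environment.

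The respiratory chain sits in the inner mitochondrial membrane. Complex I takes electrons from NADH and complex II takes them from succinate, complex III passes them from ubiquinol to cytochrome c, complex IV hands them to oxygen, and complex V (ATP synthase) uses the proton gradient that complexes I, III and IV build to make ATP. Most subunits are encoded in the nucleus and the remaining few in mitochondrial DNA, while complex II is encoded wholly in the nucleus. Mature mammalian red cells have lost their mitochondria, whereas reticulocytes, platelets and leukocytes in blood carry them to different extents.

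Library totals ran from 19052181 to 40529029 counts. Blood drawn through the heart wall can carry heart muscle RNA, and 5 of the 64 rats had more than 5000 counts of Mb (myoglobin, the oxygen-binding protein of heart and red muscle), between 9909 and 19852, against at most 1133 in the other 59. These were rat 12 at 39 C, rats 2 and 12 of AMPH at 16 C and rats 20 and 22 of saline at 22.5 C. They were left out of all tests and are described apart, which left 4 rats (17, 18, 19 and 21) of saline at 22.5 C, 5 of saline at 16 C, 15 at 39 C, 13 of AMPH at 16 C and 22 of AMPH at 22.5 C. The published study reports a control group of 6 rats, 2 of them removed for high Mb, whose first libraries suffered from a poor PCR reagent. The remaining 4 rats of that group were sequenced again. Saline at 22.5 C has the same numbers of rats. The labels do not say whether it is that group or which sequencing it holds. Levels are given as CPM, the count of a gene as a share of its library on a common library size, after scaling by the trimmed mean of M values (TMM), which sets most genes level between libraries. The TMM factors were uneven across groups, at 1.29 to 1.66 for saline at 22.5 C and 0.410 to 1.56 at 39 C, where 4 rats (6, 8, 15 and 16) lay under 0.6. A second scale, CPM of the library total without that factor, is therefore given beside the counts of calls and the complex sums. In blood, fewer cells of a type and less RNA per cell cannot be told apart.

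Promoter stretches are shown for 5 members on which the results turn. Uqcrh and Uqcrc2 are subunits of the same complex that went in opposite directions at 39 C, and Cox6a2, Cox8b and Cox8a contrast muscle isoforms with a ubiquitous one. Of the 94 identifiers 82 matched a promoter in the RefSeq tables (rat assembly GRCr8), for 79 genes. In the 250 bases before the start, on either strand, the ETS-type letters CCGGAAG occurred in 23 genes (29.1%), against 7.74% of 27457 promoters in all. The consensus site of nuclear respiratory factor 1 occurred in 6 (7.59%) against 0.849%, and the TATA letters TATAAA in 6 (7.59%) against 13.1%. A MEF2-type core (CTA and TAG with any 4 bases between) was found in 2 (2.53%) against 3.43%. Each stretch below is 120 bases from that window, 5′ to 3′ on the strand of the gene, with matches to any of these letters on either strand in capitals.
Uqcrh (chr5:134790883-134791002, minus strand): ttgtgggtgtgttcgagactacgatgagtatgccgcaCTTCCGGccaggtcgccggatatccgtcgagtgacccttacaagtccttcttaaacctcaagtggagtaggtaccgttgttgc
Uqcrc2 (chr1:184599120-184599239, plus strand): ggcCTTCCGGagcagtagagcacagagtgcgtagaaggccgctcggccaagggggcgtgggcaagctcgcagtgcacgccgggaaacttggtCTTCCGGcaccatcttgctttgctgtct
Cox8a (chr1:213833624-213833743, minus strand): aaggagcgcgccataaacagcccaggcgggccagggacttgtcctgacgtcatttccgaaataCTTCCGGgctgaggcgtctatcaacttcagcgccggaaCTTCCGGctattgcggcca
Cox6a2 (chr1:192219717-192219836, minus strand): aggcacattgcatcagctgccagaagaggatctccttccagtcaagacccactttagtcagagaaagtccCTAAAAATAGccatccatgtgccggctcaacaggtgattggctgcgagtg
Cox8b (chr1:205408274-205408393, minus strand): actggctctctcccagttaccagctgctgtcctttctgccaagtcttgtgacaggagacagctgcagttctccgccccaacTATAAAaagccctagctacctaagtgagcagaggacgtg
The ETS-type letters appeared once in the stretch of Uqcrh and at 2 places each in those of Uqcrc2 and Cox8a, so Uqcrh and Uqcrc2 both held this match although their levels moved apart. The stretch of Cox6a2 held the MEF2-type core and that of Cox8b held the TATA letters. A match is only a match of letters, and no binding was measured.

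Summed over its subunits, each complex but complex II had a higher TMM-scaled median in the other 4 groups than in saline at 22.5 C. For complex I (37 identifiers) the sums of the saline rats at 22.5 C spanned 1038 to 1538 CPM (median 1367). The medians of the other groups were 1819 for saline at 16 C (1556 to 1937), 1618 for AMPH at 16 C (1102 to 2394), 1748 for AMPH at 22.5 C (1015 to 3511) and 2110 at 39 C (1262 to 5372). The saline rats at 16 C all lay above those at 22.5 C, while the other 3 groups overlapped them. For complex III (9 identifiers) the medians were 770.0, 1084, 993, 1048 and 1400 in the same order, for complex IV (15 identifiers) 1352, 1824, 1778, 1871 and 2200, and for complex V (16 identifiers) 1626, 1996, 1963, 2125 and 2316. Complex II, with 4 subunits, stayed between 113 and 136 in all 5 groups. Single abundant transcripts made up much of these sums, so a higher sum need not hold for the other subunits. In complex I, Ndufa1 alone had medians of 542 CPM in saline at 22.5 C and 1088 at 39 C. In complex V, Atp5b had 718 and 1396. In complex III, Uqcrh had 406 to 665 in saline at 22.5 C and a median of 1151 at 39 C.

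The size of these differences depended on the scale. At 39 C the TMM-scaled medians were 154%, 93.4%, 182%, 163% and 142% of those of saline at 22.5 C for complexes I to V. On library totals the same ratios were 97.0%, 56.7%, 111%, 95.8% and 88.7%, so every complex but complex III lay below the saline median there. On both scales complex II stood lowest and complex III highest at 39 C relative to saline at 22.5 C. The higher medians of the other 3 groups also turned in part. On library totals AMPH at 16 C stood at 86.0%, 77.6%, 93.5%, 102% and 83.7% of saline at 22.5 C for complexes I to V, above it for complex IV alone. Saline at 16 C stood at 99.8%, 92.6%, 108%, 102% and 88.1%, and AMPH at 22.5 C at 100.4%, 85.3%, 104%, 107% and 99.8%.

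**Figure D1:**
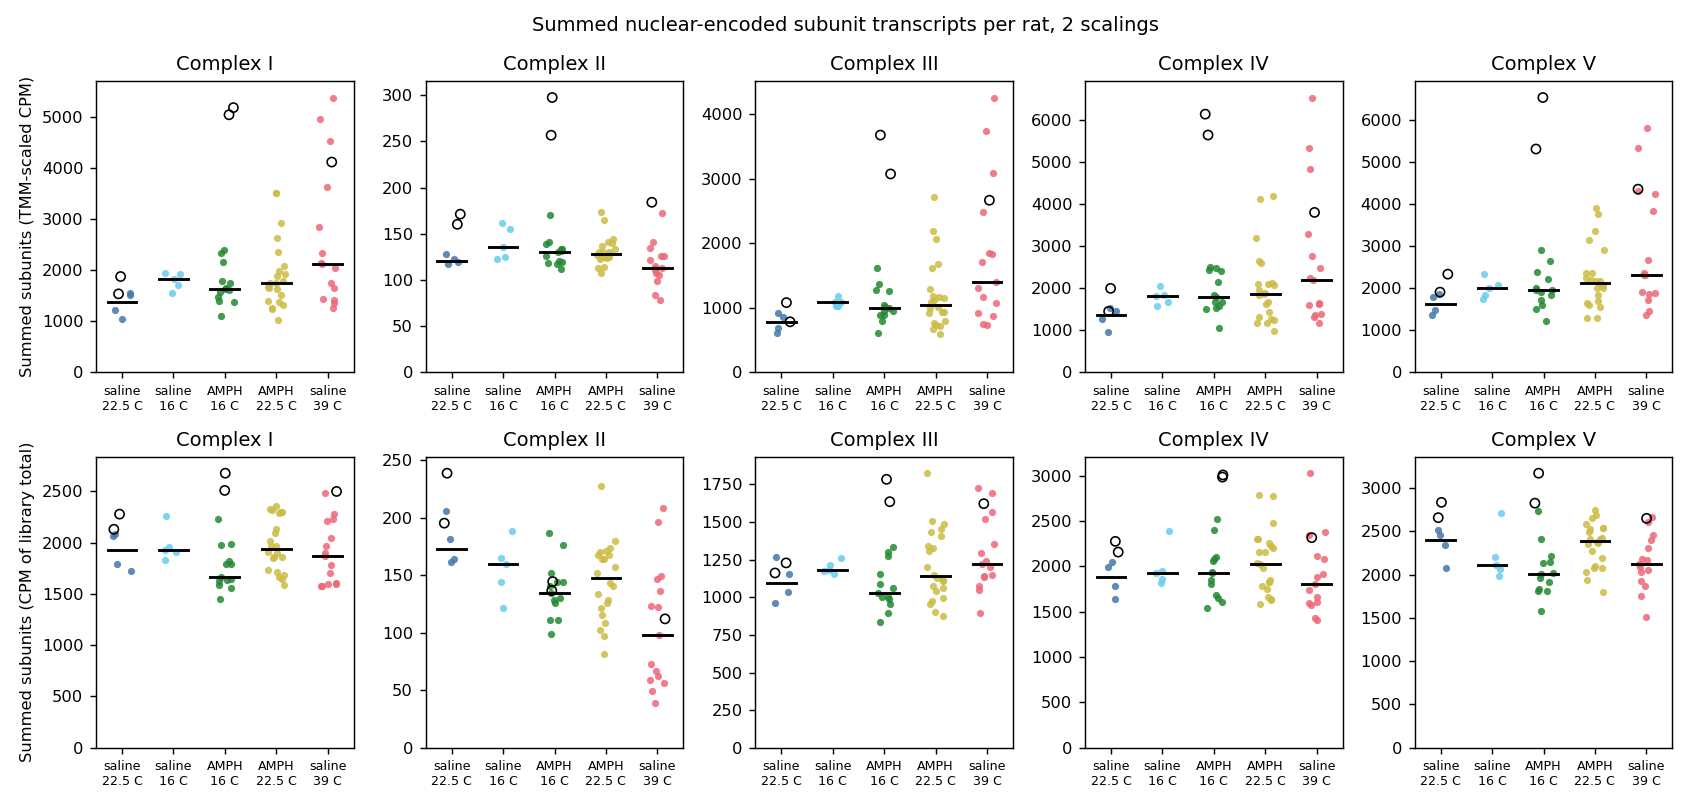
Summed level of each complex in every rat, in CPM, with TMM scaling in the upper row and as CPM of the library total in the lower row, for the 5 treatment groups. Bars are medians of the rats at or under 5000 Mb counts and hollow black circles are the 5 rats above it. The 39 C rats spread widest on the TMM scale, with complex I between 1262 and 5372, and on library totals between 1580 and 2483.

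Heat was compared with saline at 22.5 C to find what environmentally-induced hyperthermia does to circulating transcripts. On the TMM scale 22 members rose and 3 fell of 93 tested, while on library totals none rose and 37 fell. Over all 14000 genes 26.2% were called (13.1% higher and 13.1% lower), beside 26.9% of the members (23.7% higher and 3.23% lower). Of the 22 rises all passed an absolute log2 fold change of 0.58 as well and none of the falls did (23.8% of all genes passed both limits), and 35 members had an unadjusted p under 0.05 (40.1% of all genes). The split of all genes itself moved with the scale, from 1840 higher and 1831 lower to 413 higher and 5511 lower, as the median log2 fold change of all genes went from 0.02 to -0.67. The median over the members was 0.28 on the TMM scale and -0.50 on library totals, and 61 and 62 of the 93 members lay above the all-gene median. Tests were edgeR's quasi-likelihood test with Benjamini-Hochberg adjustment over all genes, and a call is an adjusted p under 0.05.

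The calls were counted by complex, with 13.1% of all genes called higher and few members in most complexes. On the TMM scale 7 of 16 tested members of complex IV rose, 5 of 18 of complex V, 8 of 43 of complex I and 2 of 9 of complex III, and none of 6 of complex II passed in either direction. All 8 rises in complex I were accessory subunits, which make up 30 of its 43 identifiers. The members that rose were Ndufa1, Ndufa5, Ndufa7, Ndufa11, Ndufa12, Ndufb2, Ndufb9 and Ndufb11 in complex I, Uqcrh and Uqcr10 in complex III, Cox4i1, Cox5a, Cox5b, Cox6b1, Cox7a2, Cox7a2l2 and Cox8a in complex IV, and Atp5b, Atp5h, Atp5j2, Atp5l and Atp5o in complex V. None of the 7 nuclear-encoded core subunits of complex I was called, a number too small to set them apart from the accessory ones. Complex IV also had the highest median log2 fold change, 0.98 over its 16 members on the TMM scale. The medians were 0.54 for complex III, 0.16 for complexes I and V and -0.08 for complex II. Those 16 include the tissue isoforms Cox6a2, Cox8b and Cox6b2, whose medians were at most 0.288 CPM in every group. Rat 4 at 39 C, with 1133 Mb counts, had 147 counts of Cox6a2 and 110 of Cox8b. The highest value in complex IV, 3.31, belonged to no called member. A median without these isoforms was not taken.

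Uqcrh (ENSRNOG00000012550), the hinge subunit of complex III beside cytochrome c1, was measured at 406, 665, 461 and 631 CPM in rats 17, 18, 19 and 21 of saline at 22.5 C. At 39 C its lowest, median and highest values were 492, 1151 and 3845. The groups overlapped at their edges, with the 39 C median above every saline rat, and the log2 fold change was 1.45 (SE 0.41, adjusted p = 0.0087 by edgeR's quasi-likelihood test). Ndufa1 (ENSRNOG00000040005), a small membrane subunit of complex I, had 385, 625, 460 and 656 in the saline rats and 506, 1088 and 2981 at 39 C. Its log2 fold change was 1.29 (SE 0.37, adjusted p = 0.00876), again with overlap at the edges.

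Among complex IV members, Cox6b1, which bridges the monomers of the enzyme, had 44.0, 80.0, 55.7 and 63.0 CPM in the saline rats and 66.3, 114 and 376 (lowest, median, highest) at 39 C, with a log2 fold change of 1.34 (SE 0.38, adjusted p = 0.0087). Cox7a2, the isoform found in most tissues, had a log2 fold change of 1.34 (SE 0.41, adjusted p = 0.0129), and its saline rats at 87.2, 141, 114 and 149 overlapped the 39 C range of 99.1 to 750.3. Cox4i1, which is the common isoform of subunit 4, had 200, 277, 216 and 310 in the saline rats against 234 to 1362 at 39 C, and a log2 fold change of 1.08. The largest rise was that of Cox7a2l2, named as a relative of Cox7a2l, at 2.20 (SE 0.74, adjusted p = 0.0254), from 0.682, 2.16, 2.38 and 3.10 CPM to 2.38, 6.58 and 28.1. Its values were low in every group and the authors' counting may split reads between it and its paralogs.

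Ndufa12, an accessory subunit of complex I, rose by a log2 fold change of 1.40 (SE 0.41), and Ndufa11, a membrane subunit, by 1.26 (SE 0.47). In complex V the peripheral stalk subunit Atp5h rose by 1.30 (SE 0.38) and the membrane subunits Atp5j2 and Atp5l by 1.17 (SE 0.39) and 1.12 (SE 0.41). Atp5b, the catalytic beta subunit, rose by 1.08, from 592, 805, 631 and 911 CPM in the saline rats to 542, 1396 and 3620 at 39 C. The remaining rises ran from 1.11 for Cox8a to 0.69 for Cox5b. All of these are TMM-scaled log2 fold changes, and none was called higher on library totals.

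The 3 members that fell on the TMM scale were also called lower on library totals. There 37 members and 5511 of all genes were called lower as all genes shifted down, so this is no separate support. Uqcrc2 (ENSRNOG00000036742), the second core protein of complex III, had 53.9, 63.9, 49.1 and 58.2 CPM in the saline rats and 25.5, 41.2 and 50.1 at 39 C, and all but the top of the heat group lay below the saline rats. Its log2 fold change was -0.52 (SE 0.16, adjusted p = 0.0150). Atp5a1, the alpha subunit that pairs with Atp5b in the catalytic head of complex V, had 134, 125, 113 and 130 against 69.6, 93.8 and 131, with overlap above 113 and a log2 fold change of -0.42 (SE 0.14, adjusted p = 0.0236). Ndufaf3, an assembly factor of complex I, had 6.98, 6.52, 6.41 and 6.79 against 2.89, 4.58 and 7.68, and a log2 fold change of -0.50 (SE 0.19, adjusted p = 0.0428).

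Other core subunits did not pass the test. The iron-sulphur subunit Ndufs1, the largest of complex I, had a log2 fold change of 0.01, the flavoprotein subunit Ndufv1 -0.23 and the iron-sulphur subunit Ndufs8 -0.14. In complex II the values were -0.19 for Sdha, the flavoprotein, 0.14 for Sdhb, the iron-sulphur protein, and -0.17 for Sdhd, a membrane anchor. Uqcrc1, the first core protein of complex III, had 0.43 (adjusted p = 0.0799) and Uqcrfs1, the Rieske iron-sulphur protein, -0.07. Among isoform partners, Cox6a1 had 0.89 (adjusted p = 0.0992) and Ndufa4 had 0.35.

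**Figure D2:**
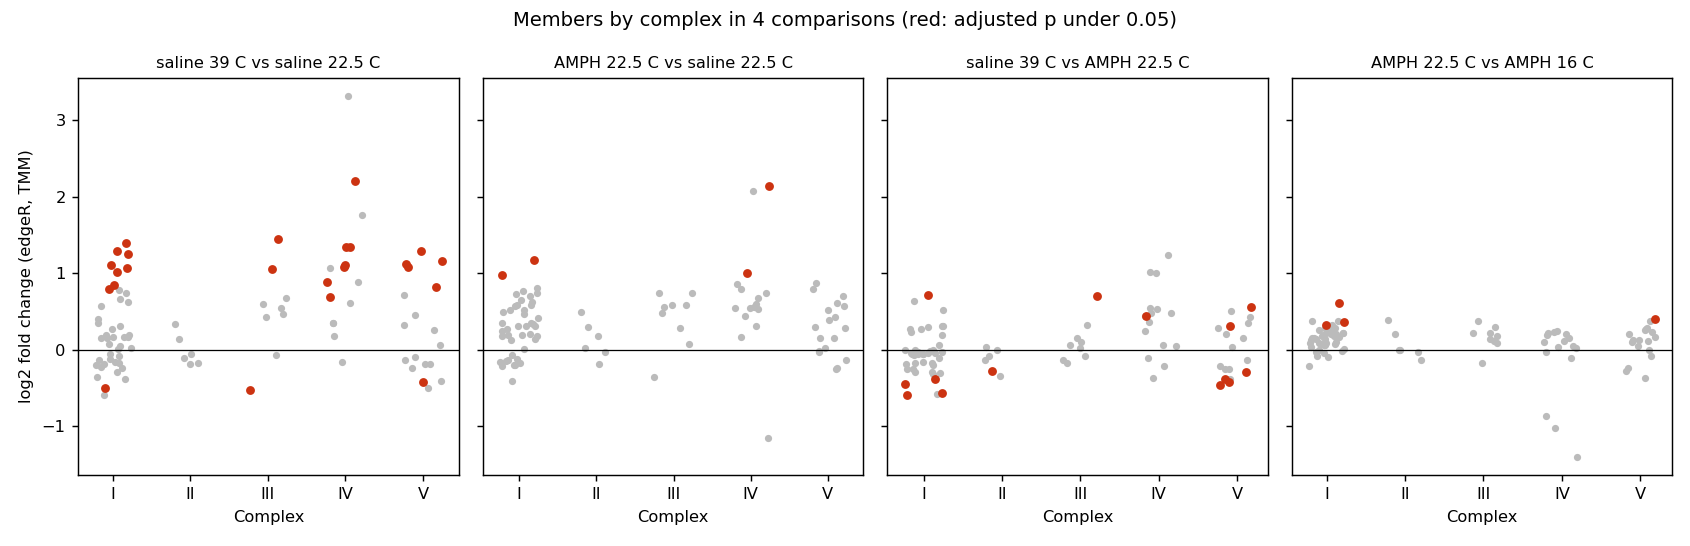
Log2 fold change of each tested member on the TMM scale, grouped by complex, in heat against saline at 22.5 C, AMPH against saline at 22.5 C, heat against AMPH at 22.5 C, and AMPH at 22.5 C against 16 C, with called members in red and the others in grey. In heat against saline at 22.5 C complex IV has the highest median, 0.98 with its low-count tissue isoforms included. The members of complex II cluster near 0, with a median of -0.08.

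These heat values moved with other features of the libraries. The 4 rats at 39 C with TMM factors under 0.6 had 1595 to 3845 CPM of Uqcrh, 13529 to 25721 of Alas2, the first enzyme of haem synthesis in red cell precursors, and 176397 to 440830 of the globin Hba-a2. The other 11 rats had 492 to 2130, 3209 to 14630 and 10363 to 161618. The factor that splits the rats also divides these values, so a low factor raises them by construction. On library totals the 4 rats had 902 to 1527 of Uqcrh, 7648 to 11889 of Alas2 and 73514 to 217194 of Hba-a2, against 597 to 1342, 3757 to 10105 and 16560 to 101883 in the other 11, and all 3 ranges overlapped. Slc4a1, the anion exchanger of the red cell membrane, had a higher median in the 4 rats on the TMM scale (1971 against 1135) and a lower one on library totals (858 against 1361). Without those 4 rats 2 members rose and 1 fell, and over all genes 1362 rose and 1067 fell. The summed level of 11 reticulocyte markers was 24312 to 485602 at 39 C and 46273 to 67616 in saline at 22.5 C, with none of the markers at 0 throughout, and 4 of the 11 rose. All 8 platelet markers rose (summed level 1761 to 9001 against 628 to 1704) and all 10 T cell markers fell (73.8 to 419 against 421 to 627). On library totals 1 reticulocyte marker rose and 4 fell, 2 platelet markers rose, and all 10 T cell markers fell. Of the remaining lists, 1 of 10 neutrophil and 3 of 8 monocyte markers rose, 1 of 7 B cell markers fell and none of 10 cardiac muscle markers was called. The part of these cell types in the result was not tested.

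The control group decided part of the count. Leaving out rat 17 of saline at 22.5 C left 2 rises and no falls, and leaving out rats 18, 19 or 21 left 12, 14 or 13 rises and 0, 2 or 0 falls. The calls over all genes went from 3671 to 1533 without rat 17 and to 1999, 3258 or 2444 without rats 18, 19 or 21. The deposited tables carry a project code, and no code held rats of both groups, so no within-code value could be had. With the code as a covariate, estimated through the other groups, no member was called in either direction by edgeR, beside 402 of all genes. An unadjusted p under 0.05 by edgeR was held by 16 members, and the share of all genes at that limit was not counted in this fit. The members' median log2 fold change was -0.06 beside -0.04 for all genes. DESeq2's Wald test without the code called 29 members higher and 2 lower, beside 2626 higher and 1646 lower of all 14000 genes.

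**Figure D3:**
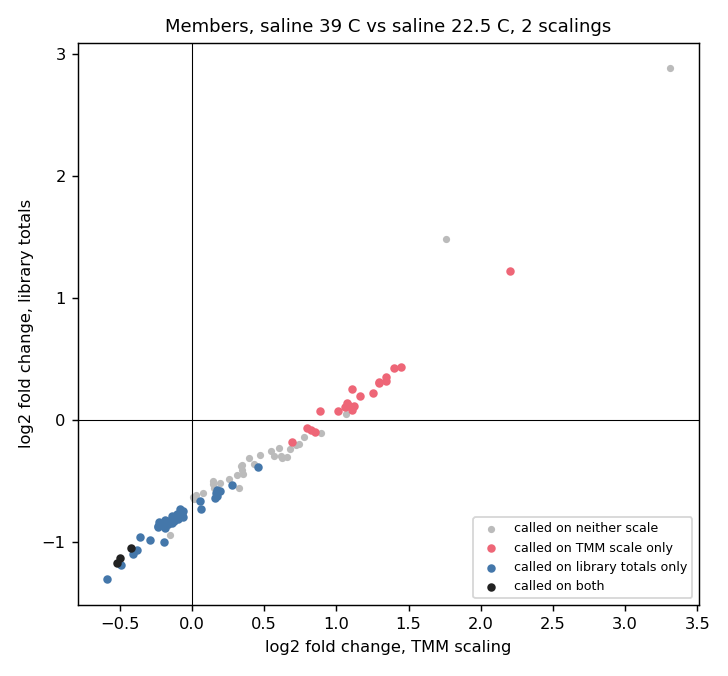
Log2 fold change of each member at 39 C against saline at 22.5 C, on the TMM scale (horizontal axis) and on library totals (vertical axis), with lines at 0 and colours for the scale on which a member was called. The members shift together between the scales, from a median of 0.28 to -0.50, as all genes shift from 0.02 to -0.67.

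AMPH at 22.5 C, the neurotoxic treatment, was compared with saline at the same temperature. On the TMM scale 4 of 93 members rose and none fell, against 13.0% of all genes called (6.66% higher and 6.36% lower), beside 4.30% of the members. On library totals none rose and 1 fell, and all genes went from 932 higher and 891 lower to 197 higher and 519 lower. All 4 passed an absolute log2 fold change of 0.58 (12.0% of all genes), and 25 members had an unadjusted p under 0.05 (32.4% of all genes). The median of the members was 0.34 beside -0.00 for all genes, and on library totals -0.08 beside -0.37, with 74 members above the all-gene median on either scale.

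Cox5a (ENSRNOG00000018816), a matrix-side subunit of complex IV, had 64.9, 61.2, 82.9 and 61.6 CPM in rats 17, 18, 19 and 21 of saline and 67.9, 125 and 363 (lowest, median, highest) in the 22 AMPH rats. The ranges overlapped, with the AMPH median above every saline rat, and the log2 fold change was 1.00 (SE 0.28, adjusted p = 0.0153 by edgeR's quasi-likelihood test). Ndufa5, an accessory subunit of complex I, had 4.35, 4.61, 5.92 and 5.80 against 4.60, 9.24 and 37.6, with a log2 fold change of 1.17 (SE 0.38, adjusted p = 0.0327). Cox7a2l2 had 2.15 (SE 0.73, adjusted p = 0.0418), with AMPH values of 1.52, 5.81 and 39.7. One of the identifiers of Ndufv3, a small flavoprotein-side subunit (ENSRNOG00000027593), had 0.98 (SE 0.34, adjusted p = 0.0441), from 0.877, 0.966, 1.48 and 0.775 to 0.998, 1.75 and 5.80.

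Levels of the fixed core members overlapped between these groups. Ndufs1 had a median of 17.4 CPM under AMPH (12.4 to 23.95) and 17.0 in saline (15.6 to 18.8), and Sdha 33.3 (20.1 to 39.6) against 36.2 (34.0 to 38.4). Atp5a1 had 117 (85.0 to 143) against 127 (113 to 134), while Atp5b had 1053 (482 to 1905) against 718 (592 to 911) and Cox4i1 had 372 (184 to 787) against 246 (199.7 to 310). None of these was called.

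In the same comparison 7 of 10 T cell markers fell and 4 of 8 platelet markers rose, and none of 11 reticulocyte markers was called. Also called higher were 1 neutrophil and 2 monocyte markers, and 1 B cell marker was lower. Their part in the result was not tested. Of the 4 calls, all 4 were lost without rat 17, 18 or 21 of saline, and 3 were counted without rat 19. The calls over all genes went from 1823 to 142, 255 or 619 without rats 17, 18 or 21 and to 2210 without rat 19. Within the 2 project codes that held rats of both groups (7 AMPH and 4 saline rats) edgeR called no member and 0 of all 12794 genes. There 9 members had an unadjusted p under 0.05 by edgeR. With the code as a covariate over all groups edgeR called no member, with 5 at an unadjusted p under 0.05, and 355 of all genes. In neither of these fits was the share of all genes at an unadjusted p under 0.05 counted, so the members cannot be set beside it. DESeq2's Wald test called 9 members higher, beside 1651 higher and 978 lower of all genes.

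Heat and AMPH at 22.5 C were compared directly, to set heat without drug beside drug without a hot environment. On the TMM scale 5 members were higher at 39 C and 9 lower, against 8.99% of all genes (4.61% higher and 4.38% lower). An absolute log2 fold change of 0.58 was passed by 3 of the calls (5.48% of all genes). On library totals none was higher and 33 were lower, and all genes went from 646 higher and 613 lower to 56 higher and 1409 lower. The members' median was -0.03 beside 0.02 for all genes, and -0.35 beside -0.30 on library totals.

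Ndufa1 was higher at 39 C by a log2 fold change of 0.71 (SE 0.20, adjusted p = 0.0177), with AMPH values of 318, 746 and 1598 CPM (lowest, median, highest) against 506, 1088 and 2981. Uqcrh was higher by 0.70 (SE 0.22), from 378, 777 and 2273 to 492, 1151 and 3845. Atp5b was higher by 0.56 (SE 0.19), Cox7a2l, a factor of complex III and IV supercomplexes, by 0.45 (SE 0.14) and Atp5sl by 0.31 (SE 0.098). Atp5sl is named as a relative of Atp5s, whose RefSeq symbol is Dmac2l, and both were counted with complex V by name only. In all 5 the ranges of the groups overlapped.

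The 9 lower members came from complexes I, II and V. Ndufa2, an accessory subunit of complex I, had 8.08, 11.8 and 42.8 CPM under AMPH and 6.34, 9.98 and 13.5 at 39 C, with a log2 fold change of -0.59 (SE 0.15, adjusted p = 0.0116). Ndufs5, likewise an accessory subunit, had -0.56 (SE 0.15) and its second identifier (ENSRNOG00000029339) -0.45 (SE 0.14). ATP5G3, which encodes the c subunit of the complex V rotor, had -0.46 (SE 0.12, adjusted p = 0.00868), from 31.3, 42.6 and 109.8 to 25.8, 32.2 and 54.1. Atp5f1, the b subunit of the stalk, had -0.43 (SE 0.11, adjusted p = 0.0114), with 46.2, 61.4 and 116 under AMPH and 24.7, 50.1 and 64.4 at 39 C. Atp5a1 (-0.29), Sdhc (-0.28), a membrane anchor of complex II, Ndufb5 and Atp5g2 were also called lower.

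Within the 7 project codes that held both groups (13 heat and 10 AMPH rats) no member was called, with 16 at an unadjusted p under 0.05 by edgeR. The share of all genes at that unadjusted limit was not counted. Over all genes 17 were called there. With the code as a covariate no member was higher and 6 were lower, beside 159 and 221 of all genes. Without the rats whose TMM factor lay under 0.6 no member was higher and 2 were lower, beside 157 and 156 of all genes. In this comparison 4 of 11 reticulocyte markers were higher at 39 C, 3 of 10 neutrophil markers and 1 of 10 T cell markers were lower, and no platelet, monocyte, B cell or cardiac marker was called. Their part was not tested.

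AMPH at 22.5 C was next compared with AMPH at 16 C, the neurotoxic with the non-neurotoxic setting of the drug. Of 93 members 4 were higher at 22.5 C and none lower, against 15.8% of all genes (9.4% higher and 6.38% lower). One member, Ndufab1, also passed an absolute log2 fold change of 0.58 (10.3% of all genes). The members' median was 0.14 beside 0.05 for all genes. On library totals 2 of the members were higher and none lower, and all genes had 853 higher and 321 lower against 1316 and 893. Members of complex I (3) and complex V (1) made up the calls.

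Ndufab1 (ENSRNOG00000018129), the mitochondrial acyl carrier protein and a subunit of complex I, had 4.38, 7.38 and 10.5 CPM (lowest, median, highest) in the 13 rats at 16 C and 6.10, 10.5 and 21.1 in the 22 rats at 22.5 C. The groups overlapped, with the median at 22.5 C close to the highest rat at 16 C, and the log2 fold change was 0.61 (SE 0.14, adjusted p = 0.00182 by edgeR's quasi-likelihood test). The saline rats at 22.5 C had 8.54, 8.94, 7.81 and 9.24 and those at 16 C had 6.98 to 9.83, between the medians of the AMPH groups in most rats. Atp5d, the delta subunit of the complex V stalk, had 19.7, 29.5 and 39.5 at 16 C and 25.7, 34.8 and 78.2 at 22.5 C, a log2 fold change of 0.40 (SE 0.12, adjusted p = 0.0200). Ndufs8 had 0.36 (SE 0.13, adjusted p = 0.0494) and Ndufa9, an accessory subunit of complex I, 0.32 (SE 0.10, adjusted p = 0.0211), with overlapping ranges in both.

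Within the 5 project codes shared by the AMPH groups (10 and 9 rats) 3 members were called higher and 2 lower, beside 1101 and 1058 of all genes. Keeping all 5 rats above 5000 Mb counts turned the direction of Ndufab1 to -0.14. Then 7 members were lower and none higher, beside 1322 and 1557 of the 14187 genes tested. Of these 5 rats, rats 2 and 12 belonged to AMPH at 16 C. They had 50.4 and 37.3 CPM of Ndufab1, far above the 10.5 of the highest other rat of the group. Of the markers, 3 of 11 reticulocyte markers were lower at 22.5 C, 2 of 7 B cell markers and 1 each of the platelet, neutrophil and monocyte markers were higher, and no T cell or cardiac marker was called. Their part was not tested.

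No member was called in the 3 comparisons that rest on saline at 16 C, the group of 5 rats. For AMPH at 16 C against saline at 16 C edgeR called 0.0% of all genes and no member, and 1 member and 7.33% of all genes had an unadjusted p under 0.05. DESeq2's Wald test called 69 of all genes and no member. For saline at 16 C against saline at 22.5 C edgeR also called 0.0% of all genes and no member, and 2 members and 10.4% of all genes had an unadjusted p under 0.05. With only these 2 groups in the fit no member was called either, but 37 of 91 members had an unadjusted p under 0.05, beside 26.1% of 12238 genes. In the fit of all 5 groups 85 of the 93 members lay above the all-gene median, and 85 did on library totals. The difference of the AMPH effect between 22.5 C and 16 C called 0.143% of all genes and no member, with 3 members and 11.3% of all genes at an unadjusted p under 0.05. The medians of the members in these 3 comparisons were -0.06, 0.30 and 0.42 beside 0.02, -0.10 and -0.02 for all genes. On library totals they were -0.16, -0.06 and 0.07 beside -0.06, -0.47 and -0.31, so the members' median for the cool against the warm saline rats changed sign.

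Uqcrh shows the size of this difference, with 952, 789.8, 790.5, 780.1 and 774.7 CPM in rats 1 to 5 of saline at 16 C, all above the highest saline rat at 22.5 C at 665 on the TMM scale. On library totals the same rats had 837 to 946, which overlapped the 652 to 917 of the rats at 22.5 C. Cox7a2 had 186 to 241 at 16 C and 87.2 to 149 at 22.5 C on the TMM scale, and 201 to 264 against 151 to 200.2 on library totals, without overlap on either. The groups shared no project code, and temperature and code cannot be told apart in this comparison.

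Subunits that work side by side changed unevenly. A ratio of counts within one library does not depend on the scale, so 2 pairs, chosen after their values were seen, are given as a description. The ratio of Uqcrh to Uqcrc2 was 7.53 to 10.8 in saline at 22.5 C (median 9.89), 12.7 to 25.6 in saline at 16 C (16.3), 7.83 to 34.7 in AMPH at 16 C (18.9), 5.94 to 68.7 in AMPH at 22.5 C (18.4) and 10.7 to 89.3 at 39 C (28.2). All saline rats at 22.5 C lay below 14 of the 15 heat rats, and the AMPH groups spanned both. The ratio of Atp5b to Atp5a1 had medians of 6.02, 6.75, 7.89, 8.72 and 17.5 in the same order, with 4.42 to 7.01 in saline at 22.5 C and 4.57 to 45.1 at 39 C. The protein products of both pairs sit in fixed proportion within their complex, while the ratios of their transcripts differed between rats.

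**Figure D4:**
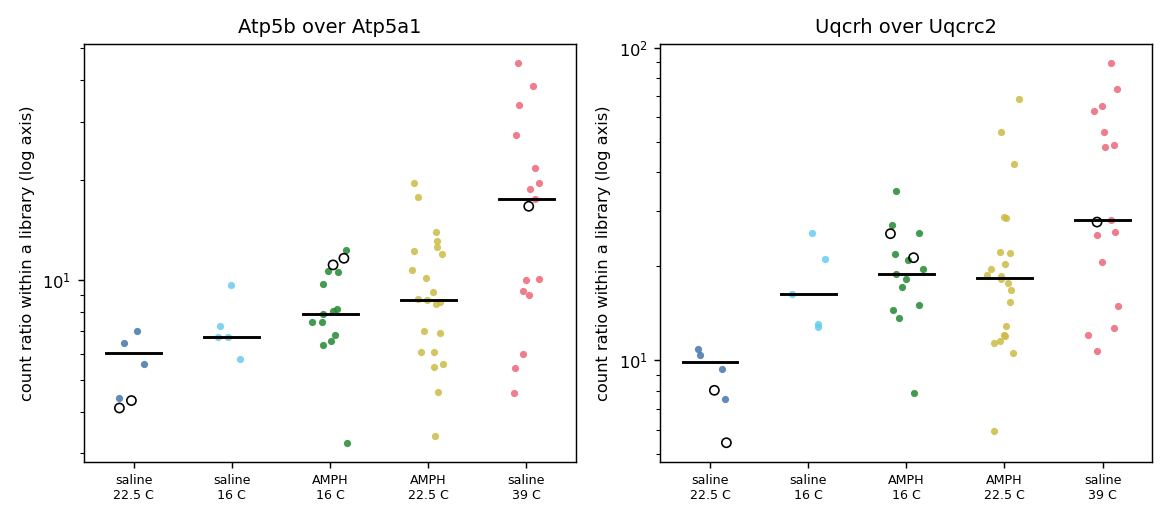
Ratio of Atp5b to Atp5a1 counts (left) and of Uqcrh to Uqcrc2 counts (right) within each library, by treatment group, on a log axis. Bars are medians of the rats at or under 5000 Mb counts and hollow black circles are rats above it. The 39 C group has the highest medians, 17.5 and 28.2, and the widest spread.

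The tissue isoforms of complex IV marked the 5 rats above 5000 Mb counts. Cox6a2 (ENSRNOG00000019851) and Cox8b (ENSRNOG00000014656), isoforms of heart and skeletal muscle, were nearly absent from the other 59 libraries, with medians of 2 counts and maxima of 147 and 110. Of those libraries 12 had no Cox6a2 and 22 no Cox8b count. In the 5 rats Cox6a2 had 759 counts (39 C, rat 12), 2320 and 2115 (AMPH at 16 C, rats 2 and 12) and 1252 and 1363 (saline at 22.5 C, rats 20 and 22). Cox8b had 748, 2403, 1716, 1003 and 924 in the same order. Every one of these exceeded every other rat in the series. The rats were selected on Mb, and no test was made.

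In raw counts over all groups the ubiquitous partners overlapped between these rats and the others. Cox6a1 had 13624 to 24770 counts in the 5 rats and 6595 to 28536 in the other 59, and Cox8a had 5688 to 9903 against 2798 to 11916. Cox7a2, partner of a muscle isoform that is not analysed here (Cox7a1), had 6067 to 13884 against 3045 to 11208. On library totals, however, Cox7a2 lay above every other rat of its own group in all 5. Cox4i2 had 5 to 17 counts in the 5 rats and at most 10 in the other 59, and on the TMM scale it lay above every other rat of its own group in 4 of the 5. Cox6b2, a testis-type isoform, had 4 to 16 counts against at most 19. Heart muscle markers were high together with the muscle isoforms, as Tnni3, the cardiac inhibitory troponin, had 3753 to 11152 counts against at most 357, and Myh6, the alpha heavy chain of cardiac myosin, 801 to 4338 against at most 337. The summed level of the 11 listed cardiac markers, Mb among them, was 869 to 4749 CPM in the 5 rats and at most 112 in any other rat. Mb, on which the 5 rats were selected, gave 300 to 1349 CPM of it. The separation of this sum was thus partly fixed by the selection. Nppa was at 0 in all saline rats at 16 C.

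**Figure D5:**
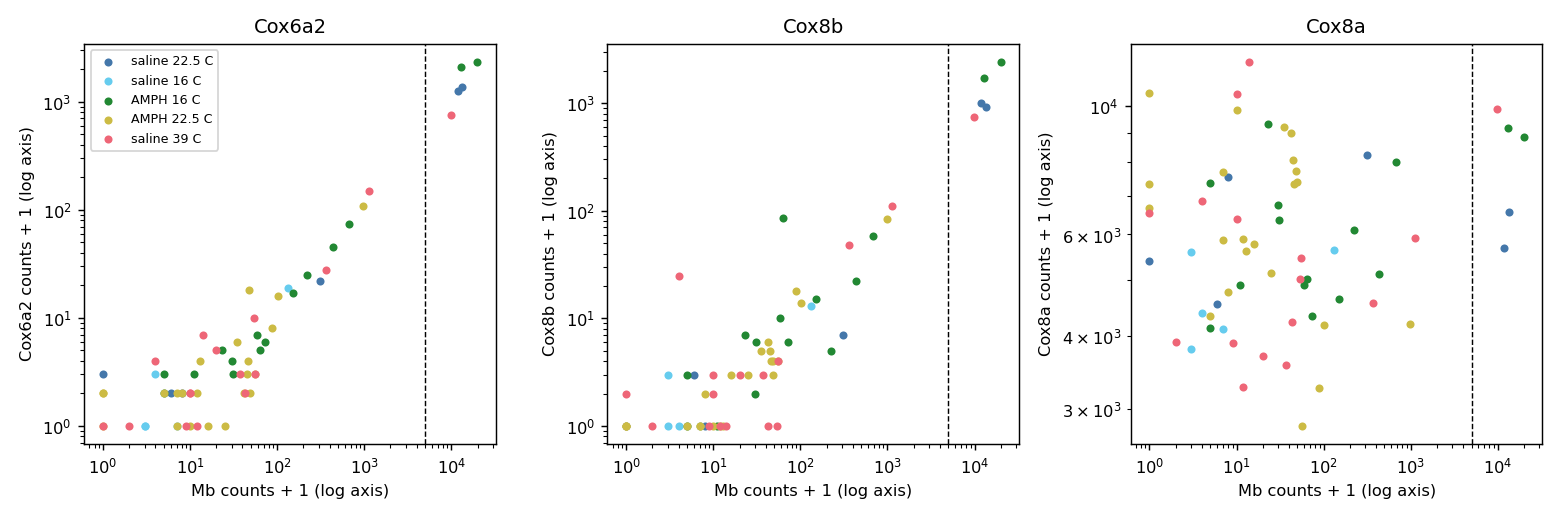
Counts plus 1 of Cox6a2, Cox8b and Cox8a in every rat against its Mb counts plus 1, on log axes and coloured by treatment group, with a dashed line at the limit of 5000 Mb counts. Cox6a2 and Cox8b reach 748 to 2403 counts in those 5 rats and at most 147 in the others, while Cox8a overlaps between them.

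Further members were high in these rats. On the TMM scale 31 members lay above every other rat of their own group in all 5, and on library totals 10 did, namely Atp5j, Atp5o, Cox6a2, Cox7a2, Cox8b, Ndufa5, Ndufb8, Ndufc1 and the second identifiers of Ndufv3 and Uqcrb. The share of all genes that did so was not counted, so neither count can be read as a trait of the members. The mtDNA-encoded transcripts summed to 51614 to 110592 CPM (TMM) in the 5 rats, against group medians of 27290 to 33515 in the others. Each lay above the highest other rat of its group, at 66285 for 39 C, 51247 for AMPH at 16 C and 33148 for saline at 22.5 C. The saline rats, at 51614 and 56885, lay below the highest other rat at 39 C. The heat rat and the AMPH rats had TMM factors of 0.485 to 0.609, and a low factor raises values on this scale. The reticulocyte sum was also uneven, at 480871 and 331680 in the AMPH rats, 200565 in the heat rat and 44508 and 95916 in the saline rats. The part of each source in the members' levels was not tested.

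The other genes of the pathway were counted in the same fits. Of 12 mtDNA-encoded transcripts listed, 1 (MT-ATP6, a membrane subunit of complex V, log2 fold change 0.66) rose with heat against saline at 22.5 C and none with AMPH. Against AMPH at 16 C, AMPH at 22.5 C had 2 lower, COX1 (-0.43), the catalytic subunit of complex IV, and ND2 (-0.38), a membrane subunit of complex I. Heat against AMPH at 22.5 C had 3 higher, COX1 (0.44), CYTB (0.40) and MT-ATP6 (0.52). On library totals 9 of the 12 fell and none rose with heat against saline, and 1 fell with AMPH.

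Of 25 electron carriers and assembly factors, 1 rose and 7 fell with heat against saline at 22.5 C, against 0 and 20 on library totals. The rise was Cox17 (0.70), a copper chaperone of complex IV, and the falls were Atpaf1, Bcs1l, Cox15, Cox18, Ecsit, Surf1 and Ttc19, all assembly factors. With AMPH against saline Cox17 rose and Atpaf1 and Ttc19 fell. Among 12 biogenesis regulators Nrf1 rose (1.04) and Tfam, which packages mtDNA, fell (-0.61) with heat, and none was called with AMPH. On library totals none of the regulators rose and 5 fell with heat. Of 13 genes of the tricarboxylic acid cycle 3 fell with heat, led by Idh3a (-0.93), a subunit of isocitrate dehydrogenase, and 10 fell on library totals.

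Glycolysis and ribosomal protein genes were counted beside them. Of 18 glycolysis genes tested, 12 rose with heat (median log2 fold change 0.86) and 13 rose and 1 (Pfkm) fell with AMPH at 22.5 C (median 1.25), both against saline at 22.5 C. On library totals the heat count became 0 higher and 2 lower, and the AMPH count 7 higher and 1 lower. With the project code as a covariate 10 rose with AMPH and none with heat. Cytosolic ribosomal proteins had 27 of 116 higher and 2 lower with heat and 2 higher and 1 lower with AMPH, and on library totals none higher with either and 48 and 2 lower. Mitochondrial ribosomal proteins had 3 of 77 higher and 14 lower with heat, and 54 lower on library totals, against 4 higher and 2 lower with AMPH. In AMPH at 22.5 C against 16 C, 12 mitochondrial ribosomal proteins were higher and none lower.

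The symbols Atp5f1, Ndufs5, Ndufv3 and Uqcrb each had 2 identifiers, which may share reads. The second identifier of Uqcrb (ENSRNOG00000032204) had 134 to 557 counts per rat across the groups and the first 200 to 725, so neither was negligible. Using only the higher identifier of each symbol left the complex sums within 1 SD of those given above. A further 7 identifiers of the same name pattern were listed for some rats only, and none exceeded 6 counts in any rat. These were Cox8c, NDUFB4, Ndufa4l2, Ndufb3l, Ndufb4l1, Ndufs6 and SDHAF1.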

How the data were processed

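The authors made globin-depleted, poly(A)-selected, strand-marked libraries, sequenced them in pairs, and deposited estimated counts per gene from RSEM 1.2.0 with Bowtie 0.12.9 on the rn5 transcriptome (CASAVA 1.8.2). The files pair Ensembl identifiers with symbols. Estimated counts were rounded to whole numbers, and genes listed in all 64 tables entered. A single edgeR 4.0.16 quasi-likelihood model (TMM, R 4.3.3) over the 5 groups and 59 rats at or under 5000 Mb counts tested the 14000 genes that reached 10 counts in 4 or more rats. DESeq2 1.42.0, other scalings, filters and rat sets were alternatives. At totals of 19052181 to 40529029 counts, counting error is small beside the spread between rats for abundant members. It matters more for members with few counts. The second identifier of Ndufv3, for one, had 37 to 52 counts per rat in saline at 22.5 C. RSEM splits reads between similar genes by estimate, so paralogs are uncertain. The steps were tested on simulated data. Members and gene lists were chosen with earlier results of these data known. Fixed core subunits and isoform pairs are named, plus in each comparison the 5 called members with the largest rise and fall, or up to 10 where most were called. Uqcrh and Uqcrc2 as a pair, and Atp5b and Atp5a1, were chosen after their values were seen. Other called members are listed by name. No duplicate libraries were found. Python 3.11.15, numpy 2.4.6, pandas 2.3.3 and matplotlib 3.10.9 were used.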

Additional observations from a re-analysis of the deposited data

Results flagged for a closer look

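A few single rats stood apart within small groups. Chance sets apart about 1 in 20 groups, and 4 of 90 such checks did so here. Cox5a was 82.9 CPM (TMM) in rat 19 of saline at 22.5 C against 61.2 to 64.9 in the others, and Sdhd was 32.4 in rat 17 against 35.8 to 35.9. In saline at 16 C, Uqcrh was 952 in rat 1 against 775 to 790 in the others, and Cox4i1 was 269 in rat 2 against 329 to 352.

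Muscle isoforms of complex IV were present in the 5 rats that the comparisons leave out. Cox6a2 had 759 counts in rat 12 at 39 C (at most 147 in the other rats of that group), 2320 and 2115 in rats 2 and 12 of AMPH at 16 C (at most 73) and 1252 and 1363 in rats 20 and 22 of saline at 22.5 C (at most 21). Cox8b had 748 (at most 110), 2403 and 1716 (at most 84), and 1003 and 924 (at most 6) in the same rats.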

How the results depend on the processing

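With heat against saline at 22.5 C 22 members were higher and 3 lower. These counts became 0 and 0 with the project code as a covariate, and also with the replicate number as a block. They were 3 and 2 with only the 2 groups fitted and 0 and 37 on library totals. Without rats of TMM factor under 0.6 they were 2 and 1. Over all genes 3671 calls became 402 with the code, 0 with the block and 2145 with 2 groups. Keeping the rats above 5000 Mb counts gave 20 members higher and 5 lower, and 5150 calls over all genes. Leaving out 1 saline rat gave 2 to 14 higher and 0 to 2 lower. For AMPH against saline at 22.5 C (4 higher, 0 lower) the counts were 2 and 4 with those rats kept, 0 higher with the code, 0 with the block, 0 within shared codes, 9 with DESeq2's Wald test, 1 with 2 groups, 0 and 1 on library totals and 7 without low TMM factors. Leaving out 1 rat gave 0 to 3 higher. Over all genes 1823 calls became 355 with the code, 43 with the block, 0 within shared codes and 803 with 2 groups. For AMPH at 22.5 C against 16 C (4 higher, 0 lower) the counts of members were 0 and 7 with Mb rats kept. They were 2 and 0 with the code, with the block and on library totals. Within shared codes and without AMPH rats 17 and 21 they were 3 and 2. Over all genes 2209 calls became 2879 with Mb rats kept, 1443 with the code and 2159 within shared codes. For heat against AMPH at 22.5 C (5 higher, 9 lower) the counts of members were 8 and 0 with Mb rats kept. They were 0 and 6 with the code, 1 and 4 with the block and 8 and 10 with the Wald test. With 2 groups they were 0 and 2, and within shared codes 0 and 0. On library totals they were 0 and 33, and without low TMM factors 0 and 2. Over all genes 1259 calls became 1269 with Mb rats kept, 380 with the code, 1705 with the Wald test and 17 within shared codes. Saline at 16 C against 22.5 C gave 0 to 1 higher with 1 rat left out. The 1 call arose without rat 19 of saline at 22.5 C, where 369 of all genes were called. The interaction gave 2 lower with Mb rats kept, beside 323 calls over all genes. The cause of these changes was not tested.

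On library totals the complex sums of saline at 22.5 C were 1932, 173, 1097, 1887 and 2399 for complexes I to V, and complex II was 160.0 in saline at 16 C and 147 in AMPH at 22.5 C, with complex III at 1180 in saline at 16 C. Signs turned for heat against saline in Ndufs1 (-0.0098 unfiltered, -0.17 with Mb rats, -0.29 with the code, -0.16 with the block, -0.0013 with 2 groups, -0.63 on totals), Ndufs8 (0.032 with the block), Sdhb (-0.025 with Mb rats, -0.20 with the code, -0.50 on totals), Uqcrc1 (-0.00 with the code, -0.36 on totals), Uqcrfs1 (0.0060 without saline rat 21), Cox5b (-0.18 on totals), Cox6a1 (-0.11 on totals) and Ndufa4 (-0.024 with Mb rats, -0.45 on totals). With Mb rats kept Ndufv3 ENSRNOG00000027593 was -0.14 for AMPH against saline and Ndufab1 -0.14 for AMPH at 22.5 C against 16 C. On totals Cox7a2l was -0.047 and Atp5sl -0.10 for heat against AMPH. Same-numbered rats did not deviate together in every pair. For saline and AMPH at 22.5 C the correlation had a median of 0.243 and a maximum of 0.617 over 4 pairs. In the other pairs of groups the medians were -0.061 to 0.047. The labels state no pairing, and this check cannot decide whether the numbers pair rats. DESeq2 size factors moved no count of members by more than 1.5 times. The group of 4 saline rats limits what could be detected.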
